A study of Saccharomyces cerevisiae with 14 samples.

Results

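The small subunit of the cytosolic ribosome of budding yeast (Saccharomyces cerevisiae) is described here through the transcripts of its proteins, as measured in mutants of ARV1 and in controls. Members are the genes whose current symbol is RPS followed by a number and, for duplicated genes, the letter A or B. The rule finds 56 genes for 32 proteins. Of these proteins 24 are encoded by a pair of paralogs, the A and the B copy, and 8 by a single gene. All 56 genes have a probe set on the older array format used, Ye6100. On the newer format, S98, 33 genes have a probe set named for them alone. The genes that could be tested over both formats number 31, out of 4287 genes tested in all.

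The small subunit binds the mRNA, holds the start site and decodes each codon against transfer RNAs. Its ribosomal RNA folds into a head, a body and a platform, and the proteins sit on these parts. In growing yeast the genes of the ribosomal proteins are among the most highly transcribed, and as a group they follow growth rate and stress through the target of rapamycin and protein kinase A pathways. The product of ARV1 is an endoplasmic reticulum membrane protein with a link to lipid transport.

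Poly(A) RNA came from 5 samples of strain background W303, mating type a, harvested in mid-logarithmic phase from YEPD, a rich medium with glucose. On Ye6100, where a sample is spread over 4 chips, there were control 1/2 (control genotype, strain SCY328), mutant 1 (ARV1 mutant, isolate SCY820) and mutant 2 (ARV1 mutant, isolate SCY840). On S98, with 1 chip per sample, there were control 3 (control genotype, strain SCY2004) and mutant 3 (ARV1 mutant, isolate SCY840). Mutants 1 and 2 share control 1/2. Mutants 2 and 3 are the same isolate on different formats. The sources used here give neither the nature of the ARV1 mutation nor the number of separate cultures, so p-values measure only the spread between these samples, and the small number of arrays limits the precision.

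Values are the deposited signals, and a log2 ratio is the log2 of the mutant signal over the control signal of the same format, below 0 where the mutant is lower. Signals of different probe sets are not on 1 scale, so only their ratios are compared. ARV1 itself gave a Ye6100 signal of 33.4 in the control against 1.0 and 2.2 in mutants 1 and 2, and an S98 signal of 51.8 in the control against 6.79 in mutant 3. On Ye6100 the 6 markers of mating type a had signals of 87.9 or more, and the 4 markers of the opposite mating type 27.9 or less; on S98 the bounds were 151.2 and 76.5, though these are different probe sets. The hybridization spikes, bacterial and phage transcripts normally added at a fixed amount before hybridization, had log2 ratios of -1.12 (BioB), -1.04 (BioC), -1.10 (BioDn) and -0.99 (CreX) in mutant 1. The same spikes lay between -0.06 and 0.06 in mutant 2 and between -0.22 and -0.08 in mutant 3. On Ye6100 each of these values pools 12 readings (BioB) or 8 (the other spikes). Single readings ran from -2.02 to -0.16 in mutant 1 and from -0.77 to 0.45 in mutant 2. Signal at the 5' end of the actin transcript (ACT1) divided by that at the 3' end was 0.781 for the Ye6100 control, 0.764 for mutant 1 and 0.351 for mutant 2, and 1.15 and 1.17 for the S98 control and mutant 3.

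The median ratio of the small subunit transcripts differed from that of all genes in a way that was not the same in the 3 mutants. In mutant 1, 54 of 56 had a lower signal than in the control, beside 37.1% of all genes above the signal filter. The median log2 ratio was -0.69 against 0.23 over all those genes. In mutant 2, 39 of 56 had a higher signal, beside 2213 of all 4566 genes, with a median of 0.20 against -0.04. In mutant 3, 23 of the 31 genes with a usable probe set of their own had a lower signal, beside 41.7% of all genes. The medians there were -0.21 and 0.12. The large subunit proteins (RPL genes) had medians of -0.72, 0.16 and -0.27 in the same order, and 70 of their 71 genes had a lower signal in mutant 1.

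The direction in mutant 1 depends on how the arrays are brought to a common scale. The deposited Ye6100 signals have equal trimmed means, and on that scale the median of the 31 tested members was -0.66 where that of all tested genes was 0.24. With the spikes set equal instead, an alternative chosen after seeing the data, the members' median in mutant 1 was 0.40 and that of all tested genes 1.31. The distance between members and all genes was -0.90 on the first scale and -0.91 on the second. Setting the spikes equal moves all genes of an array by the same factor, so it could hardly change this distance. With quantile normalization, which gives all arrays of a format the same distribution of signals, the distance shrank to -0.24. In mutant 3 the distance was -0.34 by trimmed mean and 0.02 by quantile normalization. In mutant 2 it was 0.26 and 0.03.

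**Figure D1:**
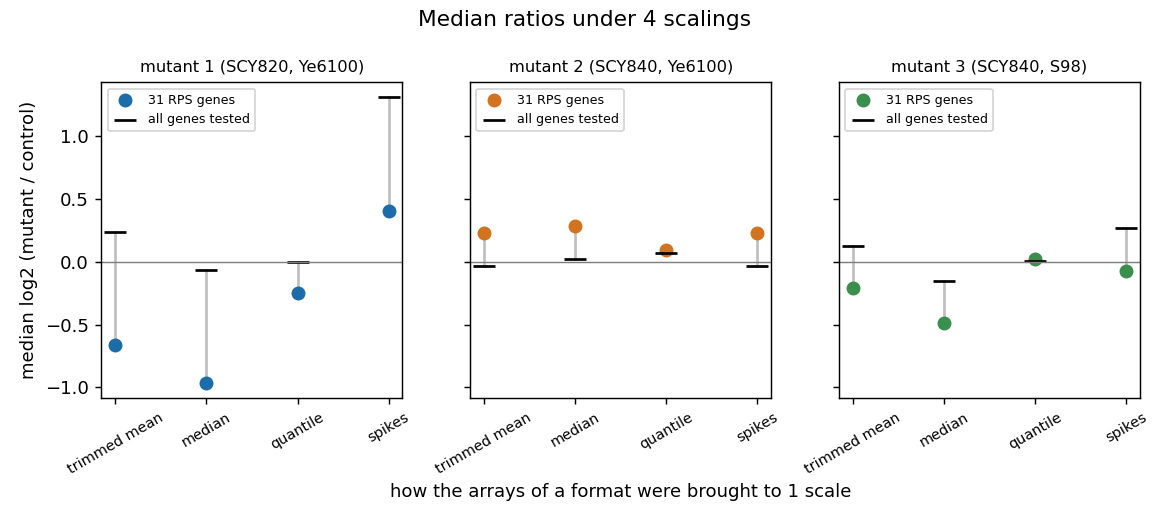
Median log2 ratio of the 31 tested small subunit genes (coloured points) and of all 4287 tested genes (black bars) in each mutant, under 4 ways of scaling the arrays. In mutant 1 the members lie below all genes, with a gap of -0.90 (trimmed mean), -0.91 (spikes) and -0.24 (quantile). With the spikes set equal they lie above 0. Quantile normalization alone could change the gap much, since the other scalings move all genes of an array together. In mutant 3 the gap is -0.34 by trimmed mean and 0.02 by quantile.

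The highest signal on the array was lower in each mutant than in its control. On Ye6100 it was 28788.4 for the control, 10536.4 for mutant 1 and 23130.7 for mutant 2, a log2 ratio of -1.45 for mutant 1 and -0.32 for mutant 2. In mutant 1 the brightest was a member, RPS21A. On S98 the scaled signals reached 5191 in control 3 and 4241 in mutant 3, and 45 and 46 of the 68 probe sets of members lay within 2-fold of that highest signal. The 211 genes that are no ribosomal protein genes and form the brightest twentieth had medians of -0.04, 0.17 and -0.21 in mutants 1, 2 and 3. In mutant 2 that is close to the members' median of 0.20, and in mutant 3 it is the members' own median of -0.21. In mutant 1 the members lay well below those bright genes. The part of the spikes, the highest signal and the actin ratio in these results was not tested.

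**Figure D2:**
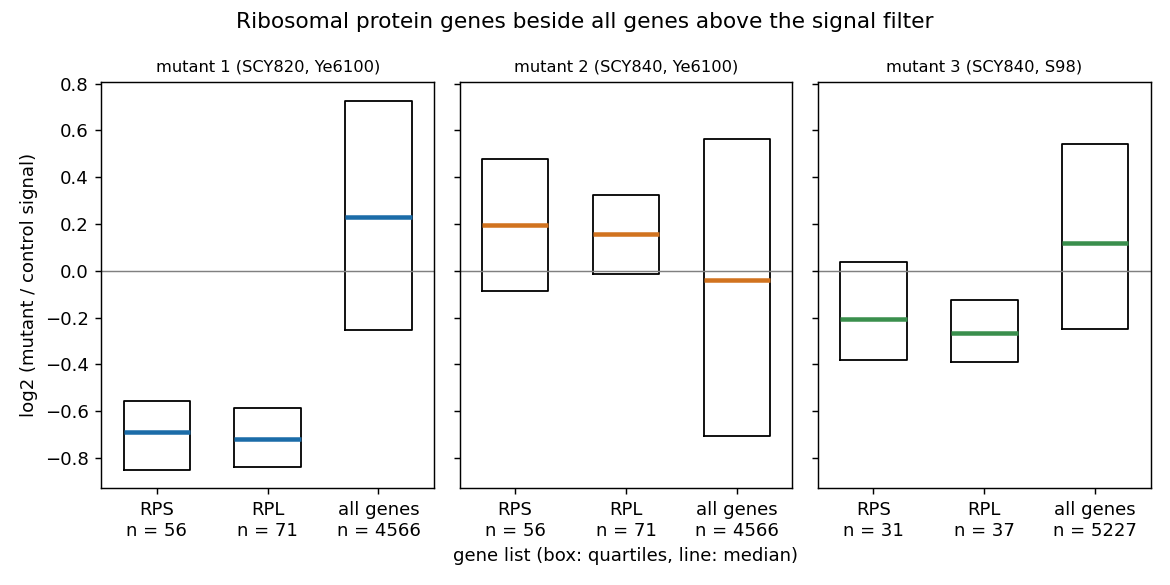
Quartiles (box) and median (line) of the log2 ratio of mutant to control signal for small subunit genes (RPS), large subunit genes (RPL) and all genes above the signal filter, by mutant. From left to right the RPS medians are -0.69, 0.20 and -0.21, and the RPL medians -0.72, 0.16 and -0.27.

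Counted by size, 40 of 56 members were at least 1.5-fold lower in mutant 1, beside 13.2% of all genes on that array. None of the 56 was at least 1.5-fold higher, beside 30.9% of all genes. In mutant 2, 4 of 56 members were at least 1.5-fold lower, a smaller share than the 29.3% of all genes. The 7 members at least 1.5-fold higher in mutant 2 were RPS28A, RPS1B, RPS9B, RPS23B, RPS12, RPS28B and RPS9A, beside 24.2% of all genes. In mutant 3 the 3 members at least 1.5-fold lower were RPS25A, RPS29B and RPS10B, of 31, beside 8.59% of all genes. RPS27B and RPS22A were at least 1.5-fold higher there, 2 of 31 beside 22.9% of all genes. These lists were read from the values, and each mutant is 1 sample, so they carry no test.

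Over all 5 samples limma, with the array format as a block, called 0 of the 31 members at an adjusted p under 0.05, and it called 0% of all genes. Unadjusted, p was under 0.05 for 281 of the 4287 genes and for 0 members. The members' limma adjusted p ranged from 0.735 to 0.999. Their median fitted log2 change was -0.12, beside 0.10 for all genes. That median rests on single samples, since it was 0.07 without mutant 1 and -0.38 without mutant 2. Lower in all 3 mutants were 6 members, RPS26A, RPS7B, RPS25A, RPS29B, RPS0B and RPS0A, which is 19.4% of the 31 beside 14.6% of all genes. Higher in all 3 mutants were 0 members, beside 26.2% of all genes. With the spikes set equal, RPS26A and RPS0B were the 2 members lower in all 3 mutants, beside 2.10% of all genes, and 10 members were higher in all 3, a share near the 33.5% of all genes. With the mean of all probe sets of a gene, RPS0A, RPS25A, RPS26A and RPS7B were the 4 members lower in all 3 mutants. No share of all genes is given for that setting, so this count cannot be set against one.

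**Figure D3:**
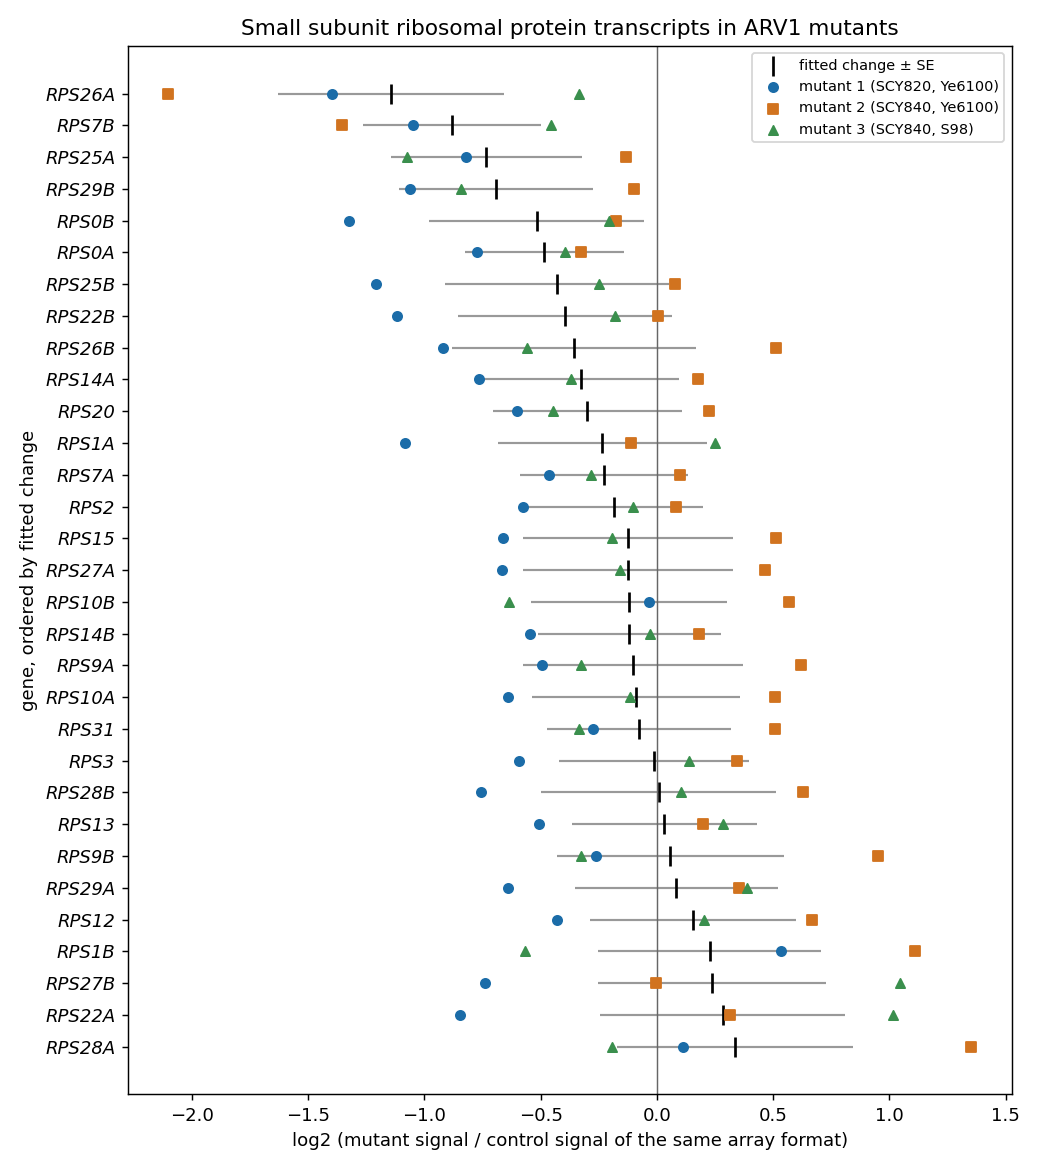
Log2 ratio of each of the 31 tested small subunit genes in mutant 1 (circles), mutant 2 (squares) and mutant 3 (triangles), with the fitted change over the 3 mutants (black tick) and its SE (grey line), ordered by fitted change. RPS26A is lowest at -1.14 and RPS28A highest at 0.33; mutant 1 lies left of 0 for all but RPS1B and RPS28A, and mutant 2 lies right of 0 for most.

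Among the 31 genes tested, the lowest fitted change was that of RPS26A, which encodes a platform protein at the mRNA exit that is loaded late in assembly. Its Ye6100 signal was 5195.0 for the control, 1972.2 for mutant 1 and 1209.8 for mutant 2, and its S98 signal 2983.4 for the control and 2365.0 for mutant 3. Every mutant was below its own control, by far more on Ye6100 than on S98. The log2 ratios were -1.40, -2.10 and -0.34, fitted together at -1.14 ± 0.49 (SE over 5 samples; limma adjusted p = 0.735). The S98 probe set carries a suffix for probes shared with other sequences, and a second S98 probe set of RPS26A was listed at 0 in both samples and gave no value.

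RPS26B, its paralog, encodes nearly the same protein. Control and mutants 1 and 2 gave 1941.3, 1026.6 and 2765.0 on Ye6100, and control and mutant gave 3145.2 and 2135.3 on S98. It was lower than the control in mutants 1 and 3 and higher in mutant 2. The log2 ratios were -0.92, 0.51 and -0.56, with a fitted change of -0.36 ± 0.52 (SE). The A minus B difference in mutant 2 was therefore -2.61 on the log2 scale, the widest of any pair there, while in mutant 3 it was 0.22.

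RPS7B came second from the bottom. Rps7 is a protein of the body that takes part in processing of the ribosomal RNA precursor. For RPS7B the Ye6100 control read 2690.4 and mutants 1 and 2 read 1301.9 and 1051.8, while the S98 control read 3934.8 and mutant 3 read 2872.1. It was lower in every mutant than in its control, with log2 ratios of -1.05, -1.35 and -0.45 and a fitted change of -0.88 ± 0.38 (SE; limma adjusted p = 0.735). The A copy, RPS7A, had signals of 4209.8, 3053.1, 4505.0, 4417.6 and 3627.4 in the same order of samples. Its log2 ratios of -0.46, 0.10 and -0.28 all lay above those of RPS7B.

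RPS25A and RPS29B, both of the head, followed. Rps25 is a protein without which yeast can grow, and it is needed for initiation at certain internal ribosome entry sites. The RPS25A signal was 1742.2, 986.5 and 1588.3 for the Ye6100 control and mutants 1 and 2, and 3879.9 and 1840.4 for the S98 control and mutant 3. It was lower in mutants 1 and 3 and close to the control in mutant 2, with log2 ratios of -0.82, -0.13 and -1.08 and a fitted change of -0.73 ± 0.41 (SE). The S98 value comes from a probe set with a suffix for shared probes, and a second S98 probe set of RPS25A gave -0.35. RPS25B had signals of 5877.5, 2544.1, 6208.1, 3954.0 and 3330.7 in the same order. Its log2 ratios were -1.21, 0.08 and -0.25, so that the A copy was the lower one in mutants 2 and 3 and the B copy in mutant 1. A second Ye6100 probe set of RPS25B gave -0.79 in mutant 1 and 0.72 in mutant 2. With that one the A copy was slightly the lower in mutant 1 too.

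Rps29 is a small zinc-binding protein. RPS29B read 8502.3 for the Ye6100 control, 4075.4 for mutant 1 and 7941.0 for mutant 2, and 4254.7 and 2373.7 for the S98 control and mutant 3. Mutants 1 and 3 lay well below their controls and mutant 2 just below, with log2 ratios of -1.06, -0.10 and -0.84 and a fitted change of -0.69 ± 0.42 (SE). A second Ye6100 probe set of RPS29B gave -0.64 in mutant 1 and 0.56 in mutant 2, the latter of opposite sign. For RPS29A the signals were 6568.5, 4209.2, 8380.6, 1750.7 and 2290.9 in the same order. Here only mutant 1 was below its control, and the log2 ratios were -0.64, 0.35 and 0.39. Each sample was left out in turn. When this was mutant 2, RPS25A and RPS29B were the 2 members that limma called, with adjusted p of 0.0323 and 0.0279. Their changes in that fit were -0.95 ± 0.28 and -0.95 ± 0.27 (SE), and 2.29% of all genes were called lower. In either direction that fit called 15.6% of all genes, beside 6.45% of the members. With a single mutant and a single control per format, it had fewer residual degrees of freedom than the fit over all 5 samples. In both remaining mutants 21 of the 31 members were lower, which is 67.7%, beside 24.5% of all genes.

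The RPS0 pair, whose protein sits on the body near the head and is needed for maturation of the subunit, completes the 6. RPS0B had Ye6100 signals of 8706.2, 3477.2 and 7700.2 (control, mutant 1, mutant 2) and S98 signals of 3441.1 and 2981.2 (control, mutant 3). Mutant 1 stood furthest from its control, with log2 ratios of -1.32, -0.18 and -0.21 and a fitted change of -0.52 ± 0.46 (SE). A second S98 probe set of RPS0B gave 0.36, the opposite sign. RPS0A had signals of 8551.2, 5003.9, 6816.5, 3971.3 and 3015.4. Its log2 ratios of -0.77, -0.33 and -0.40 were the most even of the 6, and its fitted change was -0.48 ± 0.34 (SE).

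RPS22B was the eighth from the bottom, after RPS25B. Rps22 binds the central part of the ribosomal RNA of the subunit. The RPS22B signal was 2981.5, 1371.9, 2991.6, 4235.1 and 3733.7 in control 1/2, mutant 1, mutant 2, control 3 and mutant 3. Its log2 ratios were -1.12, 0.005 and -0.18. RPS22A, with signals of 6935.4, 3857.9, 8617.4, 1007.5 and 2037.0 in the same order, was lower in mutant 1 and higher in mutants 2 and 3. Its log2 ratios were -0.85, 0.31 and 1.02, and its fitted change of 0.28 ± 0.53 (SE) was the second highest of the members.

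RPS28A stood at the top. Rps28 is a small protein of the head beside the mRNA exit. RPS28A read 3188.8 for the Ye6100 control, 3446.3 for mutant 1 and 8144.1 for mutant 2, and 3202.1 and 2797.3 for the S98 control and mutant 3. Only mutant 2 was far from its control, with log2 ratios of 0.11, 1.35 and -0.195 and a fitted change of 0.33 ± 0.51 (SE; limma adjusted p = 0.948). A second Ye6100 probe set of RPS28A gave -0.47 in mutant 1, of opposite sign, and 0.15 in mutant 2. With the mean of all its probe sets the fitted change of RPS28A was 0.06. RPS28B had signals of 3420.1, 2023.1, 5284.9, 2034.0 and 2185.6 and log2 ratios of -0.76, 0.63 and 0.10.

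Rps1 is a platform protein next to Rps26. RPS1B read 366.4 for the Ye6100 control, 529.9 for mutant 1 and 791.4 for mutant 2, but 4884.6 and 3301.5 for the S98 control and mutant 3. It was higher than its control in both Ye6100 mutants and lower in the S98 mutant, with log2 ratios of 0.53, 1.11 and -0.57. RPS1A had signals of 9218.0, 4345.0, 8534.2, 2403.8 and 2859.4. Its log2 ratios of -1.09, -0.11 and 0.25 ran the other way, so A minus B was -1.62 and -1.22 for mutants 1 and 2 and 0.82 for mutant 3. The S98 probe sets of both copies carry a suffix for shared probes.

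Rps27 is a zinc-binding protein of the platform side. RPS27B had Ye6100 signals of 5777.7, 3465.8 and 5765.9 (control, mutant 1, mutant 2) and S98 signals of 380.5 and 785.8 (control, mutant 3). Mutant 1 was below its control, mutant 2 level with it and mutant 3 above it, with log2 ratios of -0.74, -0.00 and 1.05. RPS27A had signals of 3400.0, 2143.9, 4699.1, 3187.5 and 2856.7 and log2 ratios of -0.67, 0.47 and -0.16.

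Rps9, at the mRNA entry, takes part in decoding accuracy. RPS9B had signals of 2287.5, 1906.7, 4427.0, 4261.7 and 3400.2 in control 1/2, mutant 1, mutant 2, control 3 and mutant 3. Mutant 2 was above its control and the others were below, with log2 ratios of -0.26, 0.95 and -0.33. RPS9A was lower than RPS9B in each mutant, by 0.23, 0.33 and less than 0.01 on the log2 scale.

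The single-gene proteins have no second copy to share probes with, which makes their signals the simplest to read. Of the 8, 7 were tested, and their median fitted change was -0.08, beside -0.18 for the 24 tested members of pairs. Rps2 and Rps3 lie at the mRNA entry. RPS2 had signals of 4369.9, 2927.6, 4629.1, 1673.8 and 1559.5 in control 1/2, mutant 1, mutant 2, control 3 and mutant 3, with log2 ratios of -0.58, 0.08 and -0.10. RPS3 had signals of 12245.9, 8122.9, 15529.6, 2351.7 and 2587.3, with log2 ratios of -0.59, 0.34 and 0.14. Both were lower in mutant 1 and near the control or above it in mutant 2.

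Rps12 and Rps31 form part of the beak, a protrusion of the head, and Rps31 is made as a fusion to ubiquitin. RPS12 had signals of 4803.1, 3567.9, 7621.4, 2157.0 and 2478.8 in the same order, with log2 ratios of -0.43, 0.67 and 0.20. RPS31 had signals of 5560.0, 4601.0, 7918.2, 3803.0 and 3017.1, with log2 ratios of -0.27, 0.51 and -0.33. Both were above the control in mutant 2, and they parted in mutant 3.

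Rps15 is needed for export of the subunit from the nucleus. RPS15 had signals of 8829.6, 5577.7, 12605.6, 2825.6 and 2473.2, with log2 ratios of -0.66, 0.51 and -0.19. Rps20 is a head protein that touches Rps3. RPS20 had signals of 2985.3, 1964.7, 3491.0, 4213.6 and 3095.0, with log2 ratios of -0.60, 0.23 and -0.45. Rps13 belongs to the body. RPS13 had signals of 3623.6, 2547.2, 4152.1, 1652.1 and 2009.7, with log2 ratios of -0.51, 0.20 and 0.28. All 7 were below the control in mutant 1 and above it in mutant 2.

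The remaining pairs could be told apart only on Ye6100, since S98 names their probe sets for both copies or holds no signal for the single-copy ones. Rps21 contacts Rps0 on the body. RPS21A had signals of 24128.9, 10536.4 and 18137.2 for the control and mutants 1 and 2, log2 ratios of -1.20 and -0.41. RPS21B had signals of 14937.3, 7373.8 and 10768.7, log2 ratios of -1.02 and -0.47. Both copies were below the control in both mutants. Their own S98 probe sets were listed at 0 in control 3 and mutant 3, so neither gene was tested, and the shared one read 2875.0 and 2404.3, a log2 ratio of -0.26.

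Rps23 lies at the decoding centre and is a classic site of accuracy mutants. RPS23A had signals of 5185.3, 3071.6 and 4888.0, log2 ratios of -0.76 and -0.09. RPS23B had signals of 7511.0, 6721.8 and 12618.0, log2 ratios of -0.16 and 0.75. The B copy was the higher one in each. The 3 shared S98 probe sets did not match one another, reading 4757.9 and 3363.6, 5081.6 and 4137.4, and 1390.1 and 89.4 in control 3 and mutant 3, log2 ratios of -0.50, -0.30 and -3.96.

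Rps16, a head protein, reaches with its tail toward the decoding site. RPS16A had signals of 2697.3, 1540.2 and 2329.5, log2 ratios of -0.81 and -0.21. RPS16B had signals of 4188.4, 2419.7 and 6027.3, log2 ratios of -0.79 and 0.53. The copies were alike in mutant 1 and 0.74 apart in mutant 2. Their 4 shared S98 probe sets ranged from -0.53 to -0.17.

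In 6 other pairs the copies stayed within 0.44 of each other in both Ye6100 mutants. Rps4 and Rps6 belong to the body, and Rps6 is the phosphorylated protein of the subunit. RPS4A had signals of 4424.0, 2902.6 and 5072.9 for the control and mutants 1 and 2, and RPS4B 5130.9, 3009.8 and 5042.4. RPS6A had 3437.6, 2476.4 and 4409.9, and RPS6B 4153.5, 2304.4 and 4326.4. In each of these pairs the A copy had the higher log2 ratio. The shared S98 probe sets had log2 ratios of -0.49 for RPS4 and -0.22 for RPS6.

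Rps18 and Rps19 are head proteins. RPS18A had signals of 6551.3, 4024.4 and 8242.4, and RPS18B 5062.9, 2986.1 and 4697.5. RPS18B alone of the 4 was below the control in mutant 2. RPS19A had 12275.1, 9126.5 and 17804.5, and RPS19B 6616.8, 4495.3 and 8998.6. The shared S98 probe sets had log2 ratios of -0.14 for RPS18 and -0.18 for RPS19.

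Rps24 and Rps30 belong to the body. RPS24A had signals of 4683.2, 2929.2 and 6099.3, and RPS24B 4332.1, 2402.5 and 4807.6. RPS30A had 8225.0, 5217.7 and 9109.0, and RPS30B 6647.0, 4960.2 and 8477.6. All 4 were below the control in mutant 1 and above it in mutant 2. The shared S98 probe sets had log2 ratios of -0.36 for RPS24, and -0.25 and -0.19 for RPS30.

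Rps10 and Rps14 complete the pairs tested. Rps10 lies in the head near the mRNA entry. RPS10A had log2 ratios of -0.64, 0.51 and -0.12, and RPS10B of -0.03, 0.57 and -0.63. The other probe sets of RPS10B gave -0.41 and -0.42 in mutant 1, 0.35 and 0.51 in mutant 2, and -1.305 in mutant 3. Rps14 is a platform protein. RPS14A had log2 ratios of -0.76, 0.18 and -0.37, and RPS14B of -0.54, 0.18 and -0.03. The A copy of RPS14 was the lower one in all 3 mutants, in mutant 2 by less than 0.01.

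Set against each other, the paralogs showed no common lean toward the A or the B copy. The median of A minus B over the pairs was 0.10 in mutant 1 and 0.08 in mutant 2 (24 pairs each), and 0.08 in mutant 3 (12 pairs). In the fit over the 12 pairs measured apart on both formats the median A minus B was -0.12. The median distance without sign was 0.25, 0.32 and 0.43, and the copies were at least 1.5-fold apart in 5, 8 and 5 pairs. Of the 12 pairs measured apart on both formats, the B copy was the lower in all 3 mutants for RPS7, RPS22 and RPS29, and the A copy for RPS9 and RPS14. For RPS22 and RPS29 this depends on the Ye6100 probe set used. The RPS22B probe set without a suffix gave -0.25 and 0.45 in mutants 1 and 2, above RPS22A. A second one of RPS29B gave -0.64 and 0.56, level with RPS29A in mutant 1 and above it in mutant 2. With the mean of all probe sets of a gene, the B copy was the lower in 3 pairs. The fitted A minus B difference was 0.78 ± 0.28 (SE from the pair's own residuals) for RPS29, 0.68 ± 0.32 for RPS22 and 0.65 ± 0.50 for RPS7. RPS26 had -0.79 ± 1.17, RPS1 -0.46 ± 0.80 and RPS27 -0.36 ± 0.55, so for these the mutants were spread more widely than the difference itself. No p is given for them.

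**Figure D4:**
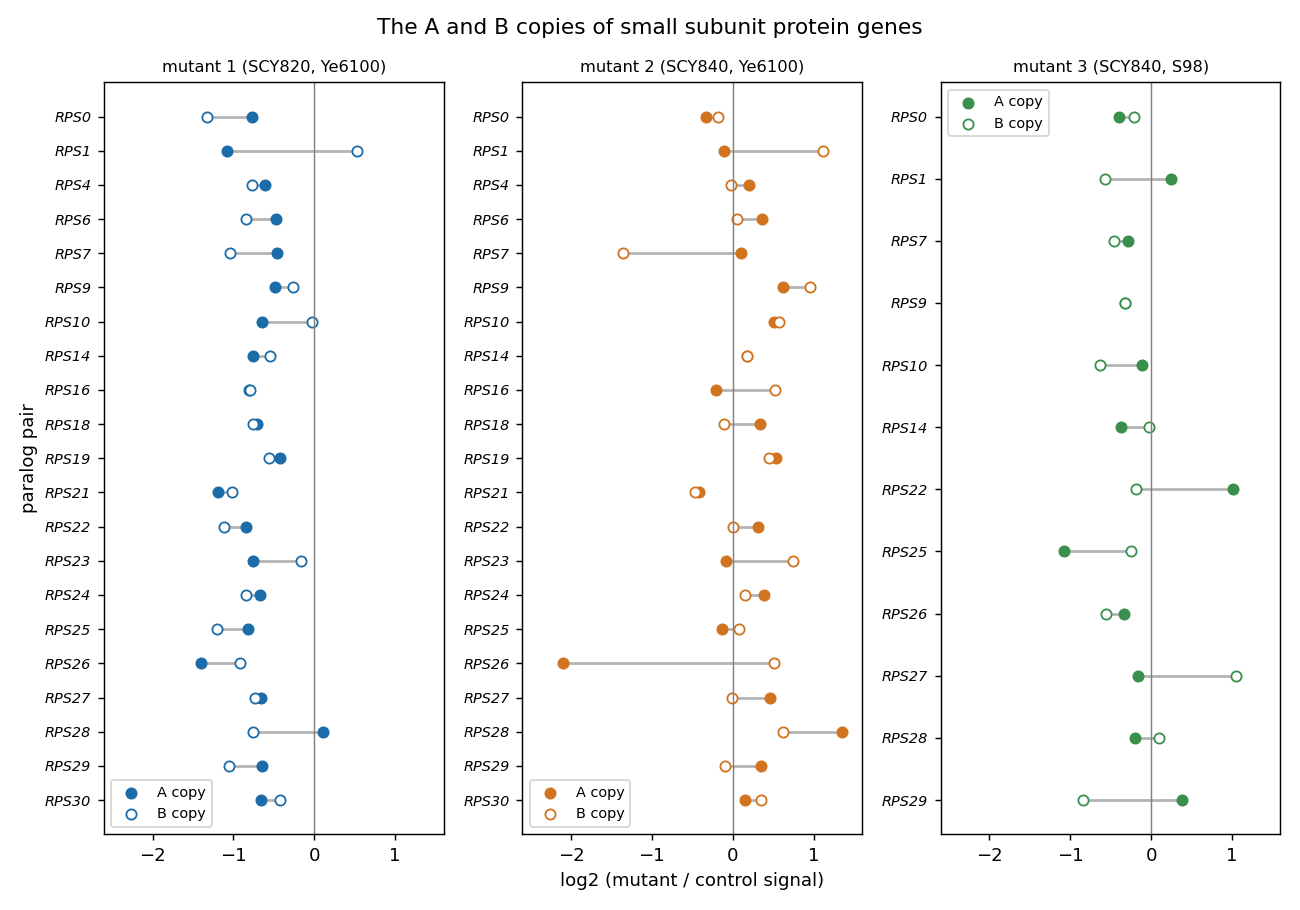
Log2 ratio of mutant to control signal for the A copy (filled) and the B copy (open) of each pair, 21 pairs in mutants 1 and 2 (Ye6100) and 12 in mutant 3 (S98), joined by a grey line. RPS26 is widest apart in mutant 2, by -2.61 (A minus B), and RPS29 and RPS27 in mutant 3, by 1.23 and -1.20.

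How far the copies can be told apart is limited by the probes. Of the 87 Ye6100 probe sets of members 56 carry a suffix for probes shared with other sequences, and of 68 on S98 48 do. On S98 21 probe sets are named for both paralogs, and 11 proteins are seen only through such sets. Without the probe sets that carry a suffix 18 members were left, of which RPS0A and RPS7B were lower in all 3 mutants. No share of all genes is given for that setting, so the count does not set these members apart from other genes. Different probe sets of a member spread over a median of 0.23, 0.18 and 0.19 on the log2 scale in mutants 1, 2 and 3, and their sign differed in 1 of 21, 4 of 21 and 1 of 12 members with several. For 10 members Ye6100 holds probe sets for both the first and the second exon, set here beside the low actin ratio of mutant 2. The first exon minus the second had a median of 0.12 in mutant 1 and -0.01 in mutant 2. The first exon was the lower one in 3 of the 10 in mutant 1 and in 5 of the 10 in mutant 2.

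With the A and B probe sets averaged by protein, an alternative chosen after seeing the data, limma called 0 of the 31 proteins that S98 also names. The lowest fitted changes were those of Rps23 at -0.77 ± 0.48 (SE) and Rps26 at -0.75 ± 0.37. The value for Rps23 includes the deviating S98 probe set. The highest was that of Rps12, at 0.15 ± 0.44. By place in the subunit, the 13 tested head genes had a median fitted change of -0.09 and the 18 of the body and platform -0.21.

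Genes that act on the small subunit were also examined. Of its assembly factors, 22 tested, 9 were lower and 0 were higher in every mutant, with a median fitted change of -0.34. The lowest was TSR2, whose protein is the chaperone that carries Rps26 to the subunit, with log2 ratios of -1.23, -0.56 and -0.80 and a fitted change of -0.86 ± 0.37 (SE; limma adjusted p = 0.735). RIO2 and RIO1, kinases of late maturation, had -0.68 ± 0.36 and -0.66 ± 0.48. HRR25, a casein kinase that phosphorylates assembly factors, was the highest at 0.38 ± 0.37. Of a wider list of initiation factors and related genes such as GCN1, 22 tested, 9 were lower and 1 was higher in every mutant, and the median was -0.37. NIP1, a subunit of initiation factor eIF3, had -0.71 ± 0.38, and GCD11, a subunit of eIF2, -0.70 ± 0.43. TIF4632, one of the genes of eIF4G, had 0.94 ± 0.43. Of 19 tested regulators of ribosomal protein genes 4 were lower and 1 was higher in every mutant, and the median was -0.03. TPK3, a catalytic subunit of protein kinase A, was the lowest at -0.60 ± 0.52, and FHL1, a transcription factor at ribosomal protein promoters, the highest at 0.40 ± 0.55. limma called 0 genes of these lists, where 14.6% of all genes were lower and 26.2% higher in all 3 mutants.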

How the data were processed

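Per the labels' protocols, biotin-labelled cRNA from poly(A) RNA of 5 yeast samples was put on Affymetrix arrays. The submitters' processing notes name MAS5, and the deposited files hold its linear intensities (signals) by probe set. The sources used here give no version, scaling target or genome build. Members were named through the locus tag in the Ye6100 probe set name and the reference gene table, and through the platform's gene symbol on S98. The Ye6100 array itself gives 19 members an older name with another RPS number, which was not used. Columns of other samples number 0.

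Ye6100 signals were used as deposited (2% trimmed means of 250.1, 249.7 and 249.7). On S98 (500.3 and 250.1) the factors 0.707 (control 3) and 1.41 (mutant 3) brought both to a common value. The 5th percentile of each table (2.4 and 1.98) was the floor before log2. A gene was tested if its brightest probe set, which gave its value, had a mean above the 25th percentile of both tables (25.4 and 28.1). RPS21A and RPS21B did not pass. The 4 chips of a sample counted as 1 replicate. The test was limma 3.58.1 in R 4.3.3 (lmFit, eBayes with a trend) over all 4287 genes, two-sided, with the format as a block and Benjamini-Hochberg adjustment at 0.05. The format is the split that the replicate numbers of the labels also give, which pair mutant and control by array. It leaves 2 residual degrees of freedom. A minus B differences were fitted by least squares with the same terms, without a p. Their SE comes from the residuals of each pair alone, without eBayes. The SE of a member is moderated by eBayes, so the 2 kinds of SE are not alike. The scripts were tested on simulated data.

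A few members are counted in all totals but not reported here by name or plotted as pairs. Named are the 8 lowest and 8 highest members by fitted change, the genes without a paralog, the 6 pairs furthest apart, every member with a shared or empty probe set, and up to 3 at each end of other lists. RPS9A, RPS10 and RPS14 fall outside that rule and were named after their values were seen. The members and lists were chosen with earlier results of these data known. Plots were made in Python 3.11.15 with matplotlib 3.10.9.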

Additional observations from a re-analysis of the deposited data

Results flagged for a closer look

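For 6 of the 31 tested members the isolate SCY820 (mutant 1) lay on one side of its control and both samples of the isolate SCY840 (mutants 2 and 3) on the other, where 9.05% of all 4287 genes did. In each case mutant 1 was below its control, and the value given is the mean log2 ratio of the SCY840 samples minus that of the SCY820 sample. It was 1.51 for RPS22A, 1.12 for RPS28B, 1.01 for RPS29A, 0.86 for RPS12, 0.83 for RPS3 and 0.75 for RPS13. The difference between the isolates was not tested, because SCY820 is 1 sample. Mutant 1 is also the sample whose spikes stood at -0.99 to -1.12, and with the spikes set equal all 6 genes were above the control in all 3 mutants.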

How the results depend on the processing

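Leaving out mutant 1, 2 or 3 or control 3 gave between 6 and 21 members lower and between 0 and 6 higher in all remaining mutants, between 0 and 2 called by limma (the 2 without mutant 2), a median fitted change between -0.38 and 0.07, a median A minus B between -0.168 and 0.144, and between 2 and 5 pairs with the A copy and 3 and 5 with the B copy the lower. Without control 1/2, S98 alone remains, with no test: 23 members lower, 8 higher, a median A minus B of 0.084, and 6 pairs with either copy the lower. With the spikes set equal 2 members were lower and 10 were higher throughout, and mutant 1 had a median of 0.40, the fit one of 0.24. Quantile normalization gave 3 higher members. Over all genes, 19.0% were lower and 22.0% higher in all 3 mutants by quantile normalization, 23.8% and 17.5% centred on the median, and 2.10% and 33.5% by spikes. With S98 signals as deposited the median in mutant 3 was -1.21. Without probe sets that carry a suffix, 2 members were lower, with no share of all genes given. The median A minus B was then -0.004, and the A and B copies were the lower in 1 pair each. With no replicate block, that is without pairing by format, the median fitted change was -0.10.
Fitted changes of the opposite sign to the reported ones were found for 40 of 328 combinations of member and setting. Centred on the median they were RPS12 -0.035, RPS13 -0.157, RPS28B -0.181, RPS29A -0.105 and RPS9B -0.131. By quantile normalization they were RPS10A 0.161, RPS15 0.110, RPS27A 0.015, RPS3 0.329 and RPS31 0.168. With signals as deposited they were RPS12 -0.275, RPS13 -0.397, RPS1B -0.201, RPS22A -0.146, RPS27B -0.192, RPS28A -0.094, RPS28B -0.421, RPS29A -0.345 and RPS9B -0.371. With no replicate block they were RPS15 0.160, RPS1A 0.008, RPS1B -0.263, RPS2 0.032, RPS3 0.359, RPS31 0.059 and RPS9B -0.028. With the spikes set equal they were RPS10A 0.276, RPS10B 0.245, RPS14A 0.038, RPS14B 0.245, RPS15 0.238, RPS1A 0.128, RPS2 0.178, RPS20 0.064, RPS26B 0.007, RPS27A 0.239, RPS3 0.351, RPS31 0.288, RPS7A 0.137 and RPS9A 0.259. On S98 alone (without control 1/2) they were RPS1A 0.250, RPS1B -0.565, RPS28A -0.195, RPS3 0.138 and RPS9B -0.326. Across the other leave-one-out fits the ranges that crossed 0 were RPS10A -0.379 to 0.195, RPS10B -0.333 to 0.269, RPS12 -0.114 to 0.433, RPS13 -0.156 to 0.240, RPS14B -0.288 to 0.074, RPS15 -0.427 to 0.161, RPS1A -0.598 to 0.070, RPS1B -0.016 to 0.822, RPS22A -0.266 to 0.664, RPS27A -0.412 to 0.154, RPS27B -0.370 to 0.522, RPS28A -0.041 to 0.732, RPS28B -0.327 to 0.366, RPS29A -0.145 to 0.370, RPS3 -0.227 to 0.240, RPS31 -0.304 to 0.118, RPS9A -0.410 to 0.147 and RPS9B -0.294 to 0.345. Members with the same sign under every alternative in which they had a value number 8, RPS0A, RPS0B, RPS22B, RPS25A, RPS25B, RPS26A, RPS29B and RPS7B. Of these RPS25A, RPS25B, RPS26A and RPS29B had no value without the probe sets that carry a suffix. The cause was not tested. The fit rests on 2 controls.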
